A study of Homo sapiens with 4 samples.

Results

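Off-target sites of the VEGFA site 2 guide with exactly 5 mismatches made up 132 break loci, among 606 loci listed with this guide and 689 loci in all 4 libraries. The breaks were mapped by TTISS-seq in U2OS cells, a human osteosarcoma line of wild-type genotype, by joining a short DNA tag into double-strand breaks during repair and sequencing the flanking DNA. Of the 4 libraries, 2 came from cells given Streptococcus pyogenes Cas9 with the VEGFA site 2 single guide RNA, and 2 non-target libraries, labelled as undigested, served as the control. Nothing in the labels names a guide for the control cells or says whether the replicates were separate cultures, so spread between libraries may be technical. The data come from 1 cell line and 1 guide.

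Positions lying 30 nt or less apart were joined into 1 locus. In the 60-nt sequence around each site, on both strands, the 20-nt stretch beside an NGG motif with fewest mismatches to the guide was taken, where its predicted cut, 3 nt from the motif, lay within 10 nt of the centre. Replicate 1 listed 110 of the 132 loci and replicate 2 listed 112. The listed counts summed to 2855164 and 3182992 with the guide, whereas the control libraries held 29017 and 60660 and so resolve small shares less finely. The on-target site, the check of the labels, held 52810 and 64011 counts with the guide against 22 and 60 without it.

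Cas9 binds DNA at a protospacer-adjacent motif (PAM), which for this enzyme is NGG, and then unwinds the DNA from the PAM outwards while the guide RNA pairs with the target strand. Pairing therefore begins at the PAM-proximal end, and mismatches there are known to be tolerated less than mismatches at the far end. Guide positions are counted here from 1 at the 5′ end to 20 beside the PAM. A substitution is written as the guide base, its position and the site base on the protospacer strand. Where the guide has T and the site has C, the uracil of the guide RNA faces a guanine on the target strand, and where the guide has G and the site has A, guanine faces thymine. Both are known as wobble pairs.

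Positions 11 to 20 are the PAM-proximal part. Of the 12 loci with the highest mean share of counts, 11 are shown, because they hold most of the counts of the 132 loci. Each line gives the gene spanning the cut or, where none does, the nearest protein-coding gene after "near", then the protospacer coordinates in hg38, the strand, and the protospacer followed by its PAM. Capitals mark the PAM.
MTMR1 (chrX:150764039-150764058, plus): ctgcccccccaccccgccacTGG
TBATA (chr10:70778445-70778464, plus): cagtccccccaccccacctcTGG
near RASSF8 (chr12:25872159-25872178, minus): cattccccccaccccacctcAGG
B4GALNT4 (chr11:374664-374683, minus): aggcccccccgccccgcctcAGG
KCNQ1 (chr11:2665016-2665035, minus): ctcaccccccaccccacctcTGG
near NKX1-1 (chr4:1494514-1494533, plus): aggcccccacaccccgcctcAGG
near HMX1 (chr4:8840188-8840207, minus): cataccccccaccccgccccGGG
near RYR2 (chr1:237032378-237032397, minus): aaccccacccaccccatctcAGG
near ELL (chr19:18522670-18522689, minus): agtcccatccaccccgcctaAGG
SRPK2 (chr7:105293492-105293511, plus): tccaccccccaccccgccccGGG
near FOSB (chr19:45448780-45448799, plus): aagaccccccaccccgccccAGG

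Of the 12 highest sites, 11 carried T8C, 5 carried G16A and 3 carried T19C. The near RYR2 site alone among them had 2 mismatches at positions 11 to 20, and the near NKX1-1 site had 0 there.

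The next set holds further loci from the 8 highest with 2 or more PAM-proximal mismatches, with the PAM again in capitals.
NCOA1 (chr2:24634708-24634727, plus): accccccccccccccgccccCGG
RAB6A (chr11:73747436-73747455, plus): acccccccccgccccgccccCGG
near KIF26A (chr14:104134855-104134874, plus): agcccccccctccccgccccAGG
RAMP3 (chr7:45178332-45178351, plus): gccccaccccactccacctcTGG
near IQSEC1 (chr3:13145799-13145818, minus): gaccccccccccccgcccccGGG

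Together the 132 loci held 22.6% of the counts of replicate 1 and 21.8% of those of replicate 2, but their shares were very uneven. The median locus held 0.0229% of counts as a mean over both libraries, where a library that did not list it counted as 0. The 10 highest loci carried 66.0% of the summed share and the 20 highest carried 80.7%.

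The highest was in the 3′ UTR of MTMR1, in exon 16 of a gene for a myotubularin-family phosphatase. It held 107336 counts in replicate 1 and 116331 in replicate 2, a mean share of 3.71% ± 0.0740 (SD, n = 2). The non-target libraries listed it with 30 and 91 counts. The site in intron 6 of TBATA held 92137 and 99431 counts with the guide, or 3.18% ± 0.0730 (SD, n = 2). These 2 loci exceeded the on-target site, whose mean share was 1.93%.

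The site near RASSF8, 86521 bp from the start of that gene, held 57049 and 55405 counts, or 1.87% ± 0.182 (SD, n = 2), which overlapped the on-target share within the spread between replicates. In intron 8 of B4GALNT4, a glycosyltransferase gene, the counts were 33934 and 40791. In intron 11 of KCNQ1, which encodes a voltage-gated potassium channel, they were 34935 and 36289. The mean shares of these last 2 sites, 1.24% ± 0.0658 and 1.18% ± 0.0590 (SD, n = 2 each), did not differ beyond their spread, and replicate 2 ranked B4GALNT4 higher while replicate 1 ranked KCNQ1 higher.

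The site near NKX1-1, a homeobox gene, was the highest without any mismatch at positions 11 to 20. It held 27716 and 29852 counts, or 0.954% ± 0.0232 (SD, n = 2), so that it stood below 5 loci that each had 1 mismatch there. The site near HMX1, another homeobox gene, held 24291 and 19872 counts. The site near RYR2, which encodes a calcium release channel, held 19036 and 21118 counts, or 0.665% ± 0.00230 (SD, n = 2). Near ELL, a transcription elongation factor gene, 19465 and 19675 counts were listed, 602 bp from the start. The mean shares near HMX1, RYR2 and ELL lay within the spread of the HMX1 site, 0.160 percentage points (SD, n = 2).

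Sites in intron 2 of SRPK2, a kinase gene, and near FOSB, an AP-1 subunit gene, held 0.464% and 0.450%. The site in intron 3 of NCOA1, a nuclear receptor coactivator gene, held 12644 and 14321 counts, or 0.446% ± 0.00500 (SD, n = 2), although 2 of its mismatches were PAM-proximal. These 3 shares differed by less than the 0.0197 percentage points by which the replicates of the site near FOSB varied (SD, n = 2).

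Both VEGFA site 2 libraries listed 90 of the 132 loci, which is 81.8% of the list of replicate 1 and 80.4% of that of replicate 2. Over these 90 loci the counts ran together, with Pearson's r of 0.947 on the log10 scale and Spearman's rho of 0.956, as a description across loci that share their libraries. The median difference between replicates was 1.24-fold, and 11 loci differed by more than 2-fold. The 42 loci listed in only 1 library were small, with a median mean share of 0.0062% against 0.0529% for loci in both. An exception, in intron 1 of CNN2 and chosen after its values were seen, held 7197 counts in replicate 1 and was not listed in replicate 2.

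The comparison of interest was whether PAM-proximal mismatches separate the loci. At positions 11 to 20, 72 loci had 0 to 1 mismatch and 60 had 2 or more. The median mean share was 0.0413% in the former and 0.0167% in the latter, a ratio of 2.47. Taking only loci listed in a library, the ratio was 2.80 in replicate 1 and 2.40 in replicate 2, so the difference of 0.39 in log10 median share stood against an SD of 0.0470 between libraries (n = 2). Loci of 1 library are not replicates and only 2 libraries hold these values, so they are given without a test. The counts were concentrated more than the medians, with summed mean shares of 18.7% for 0 to 1 and 3.52% for 2 or more.

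The classes overlapped widely. Only 7 loci with 0 to 1 PAM-proximal mismatch lay above the highest locus with 2 or more, the site near RYR2. Conversely, 17 of the 60 loci with 2 or more (28.3%) lay above the median of the other class. By exact number, the median mean share was 0.0892% for the 8 loci with 0 PAM-proximal mismatches, 0.0374% for the 64 with 1 and 0.0167% for the 50 with 2. It was 0.0280% for the 7 with 3 and 0.0124% for the 3 with 4, so the order did not hold throughout. Both libraries listed 65.3% of the loci with 0 to 1 mismatch there and 71.7% of those with 2 or more.

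The difference in median share depended on which loci entered. Among the 90 loci in both libraries it grew to a ratio of 3.46. Among the 78 loci without the bulged match described further on, the median over both libraries was lower for 0 to 1 (0.0146%) than for 2 or more (0.0189%), a ratio of 0.773. Within the libraries, over loci listed there, it remained higher at 1.93-fold and 1.84-fold, and over the 54 such loci listed in both libraries it was 2.56-fold higher. The reversal thus occurred where an unlisted library counts as 0. Among loci with T8C the ratio was 3.47, and 3.36 and 3.82 within the libraries. Among loci without T8C it was 1.09, and 1.86 and 1.14 within the libraries.

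The loci were next set beside every NGG site of hg38 with 5 mismatches to the guide. Of 3904 such sites, 132 were listed (3.38%, Wilson 95% interval 2.86 to 3.996). Sites with 0 to 1 PAM-proximal mismatch were listed in 72 of 423 cases (17.02%, 13.7 to 20.9), and sites with 2 or more in 60 of 3481 cases (1.72%, 1.34 to 2.21). The ratio of these shares was 9.88, and it was 8.85 in replicate 1 and 10.2 in replicate 2 (SD of the single-library ratios 0.957, n = 2). Many of the genomic sites are copies of a repeat, since 1498 of the 3904 have a protospacer and PAM that recurs, against 5 of the 132 listed loci. Reads from repeated sequence may not be placed uniquely, and the part of this in the listing was not tested. Restricted to the 2406 sequences that occur once, the shares were 70 of 307 (22.8%, 18.5 to 27.8) and 57 of 2099 (2.72%, 2.10 to 3.50), a ratio of 8.40.

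In this set the listed share was lower with each further PAM-proximal mismatch. It was 8 of 17 (47.1%, 26.2 to 69.0) at 0, 62 of 290 (21.4%, 17.1 to 26.5) at 1 and 48 of 880 (5.45%, 4.14 to 7.16) at 2. It was 7 of 856 (0.818%, 0.397 to 1.68) at 3 and 2 of 324 (0.617%, 0.169 to 2.22) at 4. None of 39 sites with 5 was listed (0%, 0 to 8.97). The intervals at 0 and 1 overlapped slightly and those at 3 and 4 overlapped, whereas 1, 2 and 3 were apart. These intervals cover counting error over sites and not the spread between cultures.

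The mismatches fell mainly at the PAM-distal end and at a few positions near the PAM. Position 1 was mismatched in 105 loci (79.5%, Wilson 95% interval 71.9 to 85.5), position 2 in 98 (74.2%) and position 8 in 93 (70.5%). Positions 1 and 2 were both mismatched in 77 loci, and 6 loci matched the guide at both. PAM-proximally, position 19 was mismatched in 62 loci (47.0%), position 16 in 49 (37.1%) and position 11 in 38 (28.8%). By contrast position 13 was mismatched in 3 loci and position 14 in 2.

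Set against the sequences that occur once in the genome, mismatches at positions 13 to 15 were seldom listed. Sites mismatched at position 14 were listed in 0.587% of cases (0.161 to 2.11), against 6.05% (5.10 to 7.17) of sites that matched there. For position 15 the shares were 1.19% (0.682 to 2.07) and 8.23% (6.90 to 9.79), and for position 13 they were 0.862% (0.294 to 2.50) and 6.03% (5.08 to 7.14). Mismatched sites were also listed less often at positions 11, 12, 17, 18 and 20. Their shares were 3.46%, 1.71%, 1.40%, 2.45% and 2.06%, against 6.67%, 5.89%, 6.12%, 5.72% and 5.99% of matched sites. At position 19 they were listed more often, 6.24% (4.87 to 7.97) against 4.65% (3.69 to 5.86), with overlapping intervals. At position 16 the shares were alike, 5.22% (3.93 to 6.89) when mismatched and 5.31% (4.30 to 6.56) when matched. At position 1 the order was the other way, with 11.05% (9.17 to 13.3) listed when mismatched and 1.80% (1.24 to 2.60) when matched. G1A, G1C and G1T sites were listed in 15.8%, 9.40% and 10.2% of cases. At position 8 the shares were 11.04% (9.06 to 13.4) when mismatched and 2.38% (1.74 to 3.24) when matched. There the higher share lay in T8C, at 18.6%, while T8A and T8G sites were listed in 2.39% and 2.41% of cases, near the matched share. Since every site has 5 mismatches in all, a mismatch at a distal position leaves fewer for the others, so the positions are not independent.

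The listed loci also differed from the genome in which base replaced the guide base. At position 16, G16A made up 41 of the 49 mismatches. Among sequences that occur once it was 39 of 46 (84.8%), where the genome offered 36.1%. Sites with G16A were listed in 12.3% of cases (9.10 to 16.3), against 3 listed sites with G16C and 4 with G16T among 282 genomic sites of each. T19C made up 53 of 59 mismatches at position 19 (89.8%) where the genome offered 62.4%. T8C made up 80 of 89 at position 8 (89.9%) where the genome offered 53.5%, and sites with T8C were listed in 18.6% of cases (15.2 to 22.5) against 2.38% (1.79 to 3.15) of sites without it. Over all genomic sites, repeats included, T8C sites were listed in 6.01% of cases (4.88 to 7.38) against 1.91% (1.45 to 2.53). There the genome offered 76.1% T8C at position 8, 77.5% T19C at position 19 and 20.1% G16A at position 16, against 90.3%, 90.3% and 83.7% among the mismatches of the 132 loci.

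Among all 132 loci, T8C occurred in 84 (63.6%, 55.2 to 71.3), and their median mean share was 0.0358% against 0.0128% for the loci without it. In single libraries the medians were 0.0599% and 0.0270% in replicate 1 and 0.0474% and 0.0263% in replicate 2. Among loci with 0 to 1 PAM-proximal mismatch, T8C separated medians of 0.0714% and 0.0135%, and among loci with 2 or more 0.0206% and 0.0124%. Over the loci listed in a library, those with 0 to 1 had medians of 0.0949% with T8C and 0.0402% without in replicate 1, and 0.0919% and 0.0299% in replicate 2. For loci with 2 or more the order differed between replicates, with 0.0282% and 0.0216% in replicate 1 and 0.0239% and 0.0261% in replicate 2. T8C was also present in 28 of the 30 highest loci.

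Over all positions, transitions, changes between the purines A and G or between the pyrimidines C and T, made up 347 of the 660 mismatches (52.6%, 48.8 to 56.4), against 42.9% over all genomic sites. They made up 68.0% (61.2 to 74.1) at positions 11 to 20, against 47.6% in the genome, and 46.0% (41.5 to 50.6) at positions 1 to 10, against 37.1%. With sequences that occur once, the share was 53.2% (49.3 to 57.1) against 35.6% in the genome. At positions 11 to 20 it was 69.0% (62.0 to 75.2) against 36.5%. Most transitions at positions 11 to 20 were G16A or T19C, at 41 and 56 of 134 over all loci. With sequences that occur once they were 39 and 53 of 129. Guide C replaced by T made up 14.2% of the mismatches of the loci there, against 27.4% over all genomic sites. Guide A replaced by G made up 4.57% against 2.64%. The share of transitions without G16A and T19C was not computed. Without T8C, transitions were 45.7% of the remaining mismatches of the loci and 38.5% of those of all genomic sites.

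The kinds of transition were not alike. Among sequences that occur once, mismatched guide T was replaced by C in 133 of 148 cases (89.9%) where the genome had 58.3%, and mismatched guide G by A in 71 of 146 (48.6%) where the genome had 29.2%. Guide A was replaced by G in 29.2% of cases, near the genomic 24.9%, and guide C by T in 45.5% against 34.6%. Transversions of guide T were rare, at 6.08% to A and 4.05% to G, where the genome had 24.3% and 17.4%. Guide C became G in 19.4% of cases against 32.3%.

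Some combinations at positions 11 to 20 were listed far more often than others. G16A alone was found at 15 of 28 genomic sites (53.6%, 35.8 to 70.5), T19C alone at 15 of 32 (46.9%, 30.9 to 63.6), and both together at 14 of 30 (46.7%, 30.2 to 63.9). These listed shares were close to the 8 of 23 (34.8%, 18.8 to 55.1) with no mismatch there, but the shares of counts differed, as given below. In contrast, C15A alone was found at 6 of 114 (5.26%, 2.43 to 11.01). Substitutions at position 11 lay between. A11C alone was found at 6 of 23 (26.1%, 12.5 to 46.5), A11G alone at 4 of 18 (22.2%, 9.001 to 45.2) and A11T alone at 4 of 16 (25%, 10.2 to 49.5). The intervals of these position 11 sets overlapped those of G16A alone and T19C alone. T19C with C20T was found at 4 of 5 (80%, 37.6 to 96.4), but T19C with A11G at 4 of 37 (10.8%, 4.29 to 24.7). Pooled after these values were seen, sites whose PAM-proximal mismatches were G16A, T19C, both or none were listed in 52 of 113 cases (46.0%, 37.1 to 55.2). All other sites were listed in 80 of 3791 (2.11%, 1.70 to 2.62). These others include sites with more PAM-proximal mismatches than any pooled site, so the comparison also reflects mismatch number. Among the others, those with 1 PAM-proximal mismatch were listed in 34 of 340 cases (10%, 7.24 to 13.6). Those with 2 were listed in 36 of 1230 (2.93%, 2.12 to 4.03).

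The 52 loci had a median mean share of 0.0627%, against 0.0144% for the other 80, and both libraries listed 82.7% of the former and 58.8% of the latter. Among sequences that occur once the listed shares were 47.6% (38.3 to 57.1) for the pooled sites and 3.35% (2.69 to 4.16) for all others. Of these others, those with 1 PAM-proximal mismatch were listed in 14.7% of cases (10.7 to 19.8). Those with 2 were listed in 4% (2.88 to 5.54). Pooled sites of this set that also carried T8C were listed in 41 of 61 cases (67.2%, 54.7 to 77.7). Pooled sites without T8C were listed in 9 of 44 (20.5%, 11.2 to 34.5).

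Pairs of loci that differ at 1 base give the nearest thing to a matched comparison. There were 11 such pairs, with ratios of mean share from 1.09 to 99.7 and a median of 2.30. In most of these pairs the PAM differed too, among them the pairs with ratios of 68.0 and 99.7, so there the ratio does not belong to 1 protospacer base alone. Some loci enter several pairs, so the pairs are not separate comparisons. TBATA and the site near RASSF8 differ by C3G against C3T, by a TGG against an AGG PAM, and by 1.70-fold in mean share. NCOA1 and RAB6A, a Golgi trafficking gene, share the CGG PAM and differ by A11C against A11G. NCOA1 held 12644 and 14321 counts and RAB6A held 6977 and 7618, which is 1.85-fold and higher at NCOA1 in both replicates.

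The largest ratios came from NCOA1 against 2 loci with one shared protospacer, in which G1C stands in place of G1A. They are shown because a change at the PAM-distal end accompanied a large difference in counts.
NCOA1: accccccccccccccgccccCGG
near MVB12B (chr9:126124206-126124225, plus): cccccccccccccccgccccAGG
ENSG00000285444 (chr13:51767777-51767796, minus): cccccccccccccccgccccAGG

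The site near MVB12B held 375 counts in replicate 1 and was unlisted in replicate 2, and the site in intron 10 of ENSG00000285444 held 285 counts in replicate 2 and was unlisted in replicate 1. Their shared sequence occurs at 2 places in the genome, and their PAM differs from that of NCOA1. This pair included, 3 pairs of loci had identical protospacers, and they differed by 1.47-fold, 1.66-fold and 4.51-fold in mean share. The largest of these exceeded the median of the pairs that differ at 1 base. The loci of that pair held 1395 and 600 counts in replicate 1. In replicate 2 the former held 1459 and the latter was unlisted, so the 4.51-fold ratio counts an unlisted library as 0. Their sequence also occurs at 2 places in the genome.

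Of the loci with 2 or more PAM-proximal mismatches, the 8 highest held between 0.161% and 0.665% of counts. RAB6A held 0.242%, the site near KIF26A, a kinesin gene, held 5949 and 6559 counts, and RAMP3, a receptor-modifying protein gene, held 6006 and 5282. All 8 carried T8C. Each also had G16A or T19C among its PAM-proximal mismatches, as did most loci of this class.

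The 3 loci with 4 PAM-proximal mismatches can also be aligned with 1 base left unpaired, a 1-nt bulge, and a PAM that lies 1 base away. In that alignment each has fewer mismatches. Capitals mark the PAM of the bulged alignment, first for the site near IQSEC1 and then for POLR1A.
near IQSEC1, guide base 8 unpaired: gaccccccccccccgccccCGG
POLR1A, guide base 16 unpaired: caccccctccacccctctcTGG

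With 5 mismatches the POLR1A site (chr2:86077108-86077127, minus) reads as follows, in intron 11 of the gene for the largest subunit of RNA polymerase I.
POLR1A: caccccctccacccctctctGGG

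The site near IQSEC1 held 3830 and 5964 counts, or 0.161% ± 0.0376 (SD, n = 2), and POLR1A held 338 and 411, or 0.0124%. Both had 2 mismatches in the bulged alignment. The third, in intron 1 of RASA4B, was unlisted in replicate 1 and held 187 counts in replicate 2. It had 3 mismatches with an unpaired base on the site side, and its sequence occurs at 2 places in the genome.

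Over all 132 loci, 54 (40.9%, 32.9 to 49.4) also had a match with a 1-nt bulge and at most 3 mismatches, against 6.48% of all genomic sites with 5 mismatches. A guide base was unpaired in 38 of these and a site base in 16, and 49 used the same PAM as the ungapped match. Among sequences that occur once, sites with such a match were listed in 53 of 227 cases (23.3%, 18.3 to 29.3) and sites without it in 74 of 2179 (3.40%, 2.71 to 4.24). With 0 to 1 PAM-proximal mismatch the shares were 54.8% (42.5 to 66.6) and 14.7% (10.8 to 19.7), and with 2 or more 11.5% (7.50 to 17.3) and 1.96% (1.43 to 2.69).

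Such a match was present in 5 of the 12 highest loci and in 34 of the 72 and 20 of the 60 loci of the classes. MTMR1 and the sites near NKX1-1 and ELL are among them. Which alignment the enzyme used cannot be told from break positions at a shared PAM.

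In share of counts, the loci differed little by the first base of the PAM. The median mean share was 0.0230% at AGG, 0.0276% at CGG, 0.0227% at GGG and 0.0203% at TGG. Of the sequences that occur once, CGG sites were listed in 9.42% of cases (6.82 to 12.9), TGG sites in 4.03% (2.91 to 5.55), AGG sites in 4.69% (3.39 to 6.45) and GGG sites in 5.36% (3.60 to 7.92). Over all genomic sites, repeats included, CGG sites were listed in 2.97% (2.14 to 4.10) and the others in 3.00% to 4.71%, so the higher share at CGG did not hold there. Only 361 of the 1179 CGG sites have a sequence that occurs once, and these held 34 of the 35 listed CGG sites. The strands were even, with 66 protospacers on each.

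By annotation of the cut, 67 loci lay in introns, 53 between protein-coding genes, 6 in 5′ UTRs, 5 in 3′ UTRs and 1 in a coding exon. A protein-coding start lay within 1000 bp of 27 loci (20.5%, 14.5 to 28.1), against 10.4% of all genomic sites. Of the sequences that occur once, those within that distance were listed in 7.07% of cases (4.87 to 10.2) and others in 4.96% (4.10 to 5.99), which overlap. The median mean share was 0.0280% within 1000 bp and 0.0227% beyond that distance. Sites in introns were listed in 6.002% of cases (4.74 to 7.58) and sites between genes in 4.50% (3.44 to 5.87).

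Break positions lay close to the predicted cut. The rule allowed 10 nt on either side, and the strongest listed position was within 1 nt of the predicted cut in 122 of the 132 loci (92.4%, 86.6 to 95.8). On the plus strand 40 of 66 loci were at the predicted position and 22 lay 1 nt to the left of it. On the minus strand 33 of 66 were at the position and 25 also lay 1 nt to the left in the genome. These shifts are in the same genomic direction, so they point away from the PAM on the plus strand and towards it on the minus strand. The cause was not tested.

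In the non-target libraries 30 of the 132 loci were listed, 15 of them in both, and 22 of the 30 had 0 to 1 PAM-proximal mismatch. They were the abundant loci, with a median mean share of 0.256% with the guide against 0.0132% for the 102 loci that no non-target library listed. Of the 12 highest loci, 11 were in both control libraries, and the site near HMX1 was in replicate 2 only. The loci held 2.29% and 0.780% of the counts of non-target replicates 1 and 2.

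Relative to the summed counts of the same loci with the guide, the median control count was 0.0213% in non-target replicate 1, over 15 loci that both libraries with the guide listed, and 0.0480% in replicate 2, over 29. Among loci listed in both control libraries, the 5 with the highest share with the guide were MTMR1, TBATA, the site near RASSF8, B4GALNT4 and KCNQ1. TBATA held 42 and 79 control counts, the site near RASSF8 24 and 60, B4GALNT4 13 and 20, and KCNQ1 7 and 20.

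The site near ELL stood apart from this ratio. It held 328 counts in non-target replicate 1 but 15 in replicate 2, so that its share was 1.13% in the former control library and 0.650% with the guide. A second locus of this kind, chosen after its values were seen, lies in intron 1 of ENSG00000251184 and held 179 and 3 control counts, against 4467 and 4482 with the guide. Non-target replicate 1 listed these loci at 0.838% and 2.00% of their counts with the guide.

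Counts of all 689 loci were compared between the groups with edgeR's quasi-likelihood test. It called 47 of the 132 loci (35.6%) higher with the guide at a Benjamini-Hochberg adjusted p under 0.05, where 26.6% of all loci tested were called higher. The 132 loci were chosen because a library with the guide lists them, and 102 of them enter with 0 counts in both controls, so the choice of loci fixes much of the direction. The 689 loci include 83 listed only in controls, of which 0 were called higher, and among the 606 others the called share was 30.2%. Of the 132 loci it called 0 lower, with 0 lower and 68 higher at an unadjusted p under 0.05. All 47 were listed in both VEGFA site 2 libraries, and 34 of them were in no control library. Of the loci with 0 to 1 PAM-proximal mismatch 26 were called (36.1%), and of those with 2 or more 21 (35.0%).

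MTMR1 had a log2 fold change of 4.87 (edgeR, adjusted p = 0.0309), and the 13 called loci that a control library listed ranged from 4.19 to 5.37. The site near ELL was not called, at a log2 fold change of 0.17 (edgeR, adjusted p = 0.933), nor was the site near HMX1 (adjusted p = 0.187), which 1 control library lacked.

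These calls rest on both VEGFA site 2 libraries and on the scaling by total count. Without either of these libraries, with TMM factors, or with the replicate number as a block, edgeR called 0 of the 132 loci at an adjusted p under 0.05, with 2, 2, 24 and 13 higher at an unadjusted p under 0.05. DESeq2 called 10 higher and 1 lower, and called 17 higher at an unadjusted p under 0.05.

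Beside the loci with 4 and 6 mismatches, those with 5 were intermediate. The share of loci with 0 to 1 PAM-proximal mismatch was 68.0% (56.8 to 77.5) of the 75 loci with 4 mismatches, 54.5% (46.0 to 62.8) of those with 5 and 38.5% (29.9 to 47.9) of the 109 with 6. The ratio of median mean share between the classes was 7.09 at 4, 2.48 at 5 and 1.79 at 6, taken on the linear scale. In single libraries it was 5.14 and 6.07 at 4, 2.80 and 2.41 at 5, and 1.69 and 1.96 at 6, so the order held in both replicates.

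T8C was found at 4 mismatches (61.3%, 50.02 to 71.5) about as often as at 5 (63.6%), and more often at 6 (81.7%, 73.4 to 87.8). G16A was found in 20% (12.5 to 30.4) at 4, 31.1% (23.8 to 39.4) at 5 and 45.0% (35.9 to 54.3) at 6, where the intervals at 4 and 6 were apart. T19C was at 32.0% (22.5 to 43.2), 42.4% (34.3 to 51.0) and 45.0% (35.9 to 54.3), and its neighbouring intervals overlap. More mismatches give each position more chance of one, and these shares were not adjusted for that.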

How the data were processed

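The authors deposited 1 list of break positions per library, each with a raw count of reads and a 60-nt sequence. The submitters' processing notes name hg38, and 1222 of 1223 listed sequences stood at their position in it. The aligner, the listing threshold and the removal of duplicates are not given in the sources used here, so a position missing from a list entered the count test as 0 and listed counts are not depth. Samples were grouped by their labels.

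The members, classes and comparisons were chosen with earlier results of these data known. The guide was read from the study's guide list. Every NGG protospacer of hg38 with 5 mismatches was searched with Python 3.11.15, numba 0.67.0 and pysam 0.24.0, and genes came from GENCODE release 44. A share is a count divided by the library's listed total. Loci were named by rule: the 12 highest, the 8 highest of each class, those with most or no PAM-proximal mismatches, and the 5 highest in both non-target libraries. Intervals are Wilson at 95% and cover counting error only. Counts were tested with edgeR 4.0.16 (R 4.3.3, two-sided, total listed count as library size), with DESeq2 1.42.0 as an alternative, tested on simulated data. No sequence from chromosome 8 is shown, and the guide sequence and some loci are not reported here.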

Additional observations from a re-analysis of the deposited data

How the results depend on the processing

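The number of loci stayed within 1.5 times the main count under every alternative tried, from 90 for loci listed in both libraries to 133 for merging within 5 nt or a cut window of 20 nt. The difference in median log10 share was 0.39, and 0.38 to 0.45 without either VEGFA site 2 replicate. It was 0.54 for loci in both libraries, 0.29 with means of log10 shares, 0.46 with positions 9 to 20 as the PAM-proximal part, and reversed to -0.11 without loci that have a bulged match. The ratio of listed shares, 9.88, was 8.40 with sequences that occur once and 8.85 to 10.2 without either VEGFA site 2 replicate. The share of transitions, 52.6%, was 54.7% for loci in both libraries, 53.3% to 53.6% without either VEGFA site 2 replicate, 52.9% with 1 locus per protospacer and 46.4% without position 8, an alternative chosen after seeing the data. For these shares the SD between libraries (0.211 percentage points) is small because most loci are common to both. The cause of these shifts was not tested.

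The count of loci called higher with the guide, 47, was 0 with TMM factors, 10 with DESeq2 and 52 with loci of at least 50 counts. Leaving out 1 library in turn gave 0 to 69, with 0 without either VEGFA site 2 library, 69 without non-target replicate 1 and 65 without non-target replicate 2, where the lone sample of a group is assumed to vary like the other group. With the replicate number as a block it was 0. The labels do not say that the numbers pair the libraries, and deviations of same-numbered libraries correlated at 0.133 over 63 loci listed in all 4.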
